A study of Mus musculus with 6 samples.

Results

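The 9 genes described here are those whose human counterparts cause spinocerebellar ataxia when mutated, followed in the mouse cerebellum. They were chosen by name, and all 9 of 9 (Atxn1, Atxn2, Atxn3, Atxn7, Atxn10, Tbp, Fgf14, Ttbk2 and Afg3l2) were found among the 55098 genes of the deposited table. Messenger RNA of the whole cerebellum was sequenced in 6 male mice at postnatal day 60. There were 3 animals labelled wild type for Slc39a14 (WT 1, WT 3 and WT 5) and 3 labelled as knock-out for the same gene (KO 2, KO 4 and KO 6). Slc39a14 encodes ZIP14, a membrane protein that carries zinc, iron and manganese into cells, and the series title presents the knock-out as a model of dystonia with parkinsonism caused by manganese. The sources used here do not give the strain, the part of the gene that the allele lacks or the cells in which it is lost. The question put here is whether the RNA of these ataxia genes differed between the genotypes, and how their levels varied among the 6 libraries.

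Spinocerebellar ataxias are dominantly inherited disorders in which the cerebellum degenerates, often with loss of Purkinje cells, the output neurons of the cerebellar cortex. In the ataxias of ATXN1, ATXN2, ATXN3, ATXN7 and TBP a CAG repeat in the coding sequence expands and lengthens a glutamine tract in the protein. In ATXN10 and FGF14 a repeat within an intron can expand, while TTBK2 and AFG3L2 carry changes in the coding sequence. The normal proteins have unrelated tasks. ATXN1 and its partner CIC repress transcription, ATXN2 binds RNA, ATXN3 removes ubiquitin, ATXN7 belongs to the SAGA coactivator and TBP binds the TATA box. ATXN10 is a cytoplasmic protein with armadillo repeats, FGF14 sets the behaviour of sodium channels at the axon initial segment, TTBK2 is a kinase that starts the growth of cilia, and AFG3L2 is a protease of the inner mitochondrial membrane.

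The coding sequence of the repeat genes is shown because the glutamine codons are what expands in the human disorders. Each line gives the longest unbroken run of the glutamine codons CAG and CAA in the principal GENCODE M21 transcript (GRCm38, coding strand, 5′ to 3′), with the run in capitals and 30 bases on each side in lower case.
Tbp: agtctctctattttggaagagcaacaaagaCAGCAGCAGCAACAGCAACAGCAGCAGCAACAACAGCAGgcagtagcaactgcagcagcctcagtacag
Atxn3: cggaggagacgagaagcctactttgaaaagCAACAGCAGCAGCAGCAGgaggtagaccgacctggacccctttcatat
Atxn7: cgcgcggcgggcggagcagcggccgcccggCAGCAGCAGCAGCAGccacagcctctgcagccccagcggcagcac
Atxn1: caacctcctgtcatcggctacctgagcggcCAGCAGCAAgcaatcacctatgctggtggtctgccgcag
Atxn2: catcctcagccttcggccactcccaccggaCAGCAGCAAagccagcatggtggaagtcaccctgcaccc
The run of Tbp (plus strand, chr17:15504391-15504429) had 13 codons, 9 CAG and 4 CAA. That of Atxn3 (minus strand, chr12:101926563-101926580) had 6, with a single CAA, and that of Atxn7 (plus strand, chr14:14013156-14013170) had 5 CAG codons. In Atxn1 (minus strand, chr13:45567080-45567088) and Atxn2 (plus strand, chr5:121810946-121810954) no run was longer than 3 codons, and the first run of that length is shown. Among 21747 genes with a complete coding sequence, 0.23% held a run at least as long as that of Tbp, 0.841% one as long as that of Atxn3, 1.13% one as long as that of Atxn7, and 8.83% one of at least 3 codons. Fgf14, Ttbk2 and Afg3l2 held runs of at most 2 glutamine codons and Atxn10 none longer than 1. The mouse runs are the reference sequence and were not read from the libraries, and whether they lie at the place that expands in patients was not examined. The runs of Atxn1 and Atxn2 lay at codons 444 to 446 of 791 and 1129 to 1131 of 1286. They are shown for their length alone and are not given as counterparts of the human tracts.

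The libraries held 13805997 to 15788135 counts each, and the totals of the genotypes overlapped (exact two-sided permutation p = 0.6, smallest possible p = 0.1). Slc39a14 itself was not called, with 42.4 ± 1.33 CPM under the WT label and 42.3 ± 3.18 CPM under the KO label (SD, n = 3 each). Its edgeR adjusted p was 1.0 at a log2 fold change of -0.0035. The gene count thus did not check the genotype labels, on which every direction below rests. WT 5 and KO 4 stood apart from the other libraries on the first principal component of the 1000 most variable genes (-25.9 and -15.4 against 4.80 to 15.2), so results are also given without them where they moved. The second component held 26.9% of the variance, against 29.6% for the first. On it the labels were divided, with WT at 10.3 to 17.4 and KO at -17.6 to -7.84, which was not tested. All 12 Purkinje cell markers and all 12 granule cell markers were detected. The 10 markers of forebrain and brainstem neurons summed to 5.85 to 8.58 CPM in 5 libraries and to 17.2 CPM in KO 4, and 3 of them (Hoxa5, Hoxb3 and Hoxb5) had no count in any library. The summed granule cell markers lay between 7089 and 7355 CPM in KO and between 7462 and 8019 CPM in WT. Summed choroid plexus markers lay between 1051 and 3269 CPM in KO and between 447.9 and 1377 CPM in WT, and summed microglia markers between 136 and 167 CPM in KO and between 114 and 124 CPM in WT. The part of these markers in the results was not tested. In RNA of a whole tissue, fewer cells of a type and less RNA per cell cannot be told apart.

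None of the 9 ataxia genes passed the test for a difference between KO and WT cerebellum. CPM below is the count scaled to library size with TMM normalization, fold changes are KO relative to WT, and calls are made at an edgeR adjusted p under 0.05 over the 17142 genes tested. All 9 genes passed the filter on low counts, 0 of 9 were called, and 0.0467% of all genes tested were called. The smallest unadjusted p among the 9 was 0.51, and all had an edgeR adjusted p of 1.0. In 0 of 9 genes did the KO libraries lie apart from the WT libraries, while 7.26% of all genes tested had groups that did not overlap. Of the 9 log2 fold changes 6 were negative and 3 positive, and their median was -0.024, beside a median of -0.0036 over all genes tested.

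Among the genes with a coding CAG repeat in the human disorder, Atxn1 (chromosome 13, 45549755 to 45965008, minus strand, ENSMUSG00000046876, all coordinates GRCm38.p6) was at 87.3, 87.1 and 80.8 CPM in animals 1, 3 and 5 (WT), against 78.1, 89.1 and 82.1 CPM in animals 2, 4 and 6 (KO). The highest and the lowest of these libraries were both KO. For Atxn1 the log2 fold change was -0.034 (SE 0.096, edgeR adjusted p = 1.0), with a 95% interval from -0.25 to 0.18. The gene encodes a nuclear protein that acts with CIC on transcription, and the interval spans from 15.8% lower to 13.4% higher.

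Atxn2 (chromosome 5, 121711337 to 121816493, plus strand, ENSMUSG00000042605), the RNA-binding ataxin, was at 130, 131 and 139 CPM in animals 1, 3 and 5 (WT), against 126, 122 and 134 CPM in animals 2, 4 and 6 (KO). KO 6 lay above WT 1 and WT 3, so the groups overlapped. Its log2 fold change of -0.061 (SE 0.089, 95% interval -0.26 to 0.14, edgeR adjusted p = 1.0) was the lowest of the 9. Without WT 5 and KO 4 it was 0.00053.

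Atxn3 (chromosome 12, 101918901 to 101958246, minus strand, ENSMUSG00000021189) encodes a deubiquitinase and had the fewest counts of the 9, 363 to 545 per library. It was at 26.3, 32.0 and 39.8 CPM in animals 1, 3 and 5 (WT), against 30.9, 38.05 and 26.9 CPM in animals 2, 4 and 6 (KO). WT 5 and KO 4 were the highest libraries of their groups, and the spread within each group was far larger than the difference between the means (32.7 ± 6.77 CPM for WT against 31.9 ± 5.67 CPM for KO, SD, n = 3 each). Atxn3 had a log2 fold change of -0.035 with the widest interval of the set, -0.43 to 0.36 (SE 0.18, edgeR adjusted p = 1.0).

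Atxn7 (chromosome 14, 13961440 to 14107302, plus strand, ENSMUSG00000021738), the SAGA subunit, was at 62.9, 63.7 and 73.2 CPM in animals 1, 3 and 5 (WT), against 57.7, 69.9 and 64.4 CPM in animals 2, 4 and 6 (KO). KO 4 and KO 6 lay within the range of the WT libraries. Atxn7 had a log2 fold change of -0.057 (SE 0.11, 95% interval -0.31 to 0.19, edgeR adjusted p = 1.0).

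Tbp (chromosome 17, 15499888 to 15528379, plus strand, ENSMUSG00000014767), which encodes the TATA-binding protein needed by all nuclear RNA polymerases, was at 59.3, 48.6 and 61.8 CPM in WT 1, 3 and 5. In KO 2, 4 and 6 it was at 56.2, 64.2 and 58.1 CPM. WT 3 was the lowest library, and the other 5 lay between 56.2 and 64.2 CPM. The log2 fold change of 0.073 (SE 0.12, 95% interval -0.19 to 0.34, edgeR adjusted p = 1.0) was the highest of the 9, and it was -0.020 without WT 3.

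Of the genes with an intron repeat in the human disorder, Atxn10 (chromosome 15, 85336245 to 85463212, plus strand, ENSMUSG00000016541) was at 141, 150 and 157 CPM in animals 1, 3 and 5 (WT), against 154, 152 and 150.3 CPM in animals 2, 4 and 6 (KO). All KO libraries lay within the range of the WT libraries. Atxn10 had a log2 fold change of 0.024 (SE 0.087, edgeR adjusted p = 1.0), with an interval from 11.2% lower to 16.4% higher.

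Fgf14 (chromosome 14, 123977907 to 124677127, minus strand, ENSMUSG00000025551), the sodium channel modulator, was at 78.4, 74.7 and 86.6 CPM in animals 1, 3 and 5 (WT), against 82.2, 91.9 and 69.5 CPM in animals 2, 4 and 6 (KO). The WT libraries all lay between KO 6 and KO 4. Fgf14 had a log2 fold change of 0.024 (SE 0.12, 95% interval -0.25 to 0.29, edgeR adjusted p = 1.0). The gene has transcripts with different first exons, and a count over the gene does not separate them. Fgf14 and Atxn7 share chromosome 14 with Slc39a14, at distances of 53.6 and 56.2 Mb.

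Of the genes with other coding changes, Ttbk2 (chromosome 2, 120732816 to 120850604, minus strand, ENSMUSG00000090100), the cilia kinase, was at 167, 175 and 214 CPM in animals 1, 3 and 5 (WT), against 165, 215 and 170.5 CPM in animals 2, 4 and 6 (KO). WT 5 and KO 4 were nearly equal and stood above the other 4 libraries. Ttbk2 had a log2 fold change of -0.014, an SE of 0.13 and a 95% interval from -0.31 to 0.28 (edgeR adjusted p = 1.0). Afg3l2 (chromosome 18, 67404767 to 67449166, minus strand, ENSMUSG00000024527), the mitochondrial protease, was at 76.6, 79.2 and 77.8 CPM in animals 1, 3 and 5 (WT), against 76.0, 72.7 and 81.2 CPM in animals 2, 4 and 6 (KO). The KO libraries spread around the WT libraries on both sides. The log2 fold change of Afg3l2 was -0.024 (SE 0.093, edgeR adjusted p = 1.0), with an interval from 14.8% lower to 13.6% higher.

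**Figure D1:**
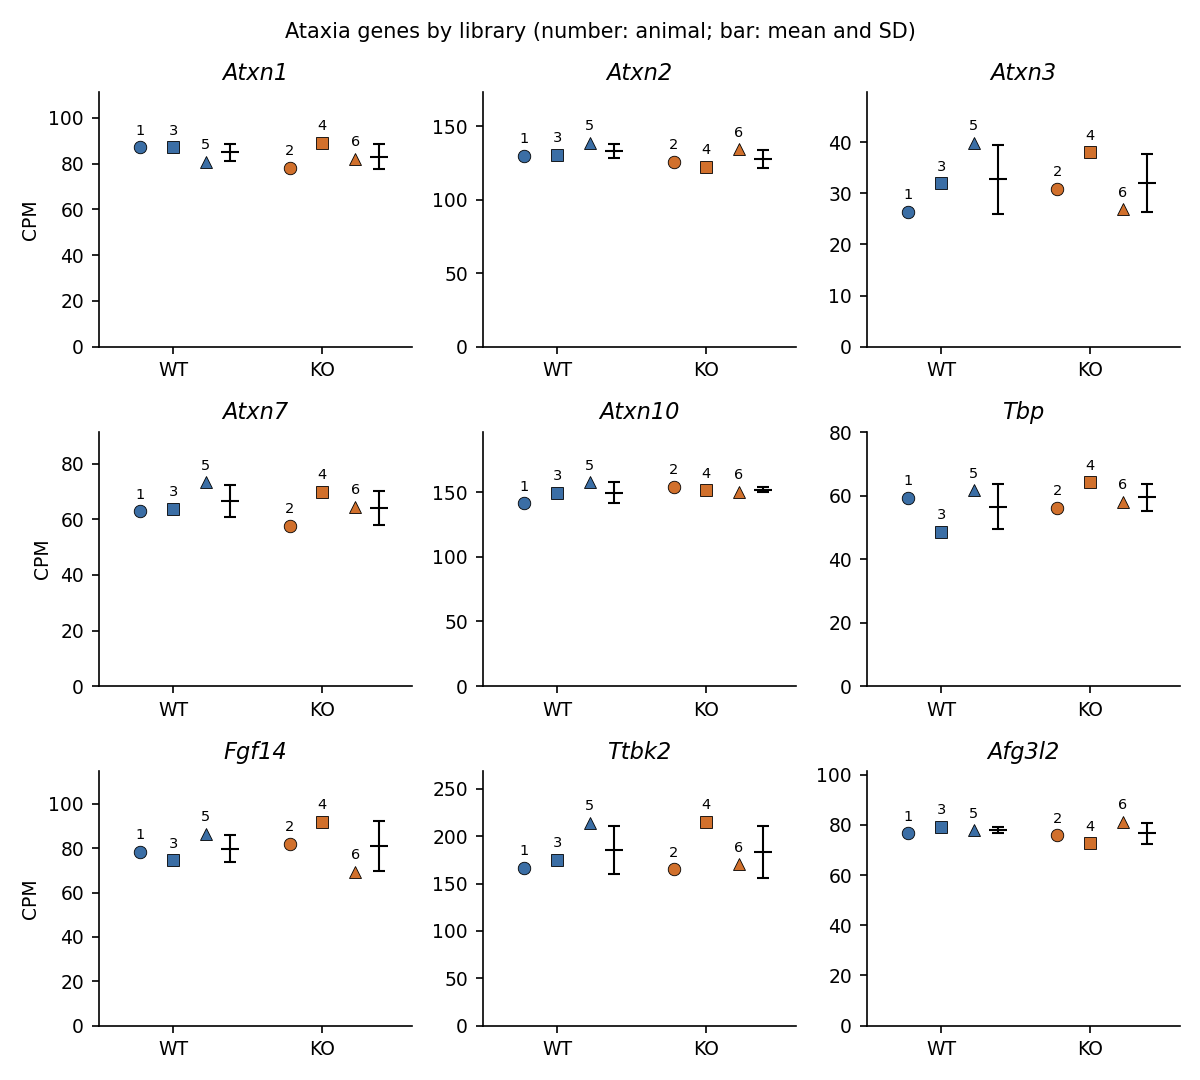
CPM (y axes from 0) of each of the 9 ataxia genes in the WT (blue) and KO (orange) libraries, with the animal number above each point and the group mean and SD as a black bar (n = 3 each). In every panel the groups overlap, and in Atxn3 and Ttbk2 animals 5 and 4 are the highest of their groups.

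Without WT 5 and KO 4 the log2 fold changes of the 9 genes ranged from -0.12 (Atxn1, SE 0.080) to 0.087 (Tbp, SE 0.11), and 0 of 9 were called (edgeR adjusted p = 1.0). With a term for these libraries in the fit, an alternative chosen after seeing the data, the standard errors of the 9 genes lay between 0.055 (Ttbk2) and 0.10 (Atxn3), and again 0 of 9 were called. In the authors' deposited table the log2 fold changes of the 9 genes lay between -0.060 (Atxn2) and 0.075 (Tbp), each with an adjusted p of 1.0.

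**Figure D2:**
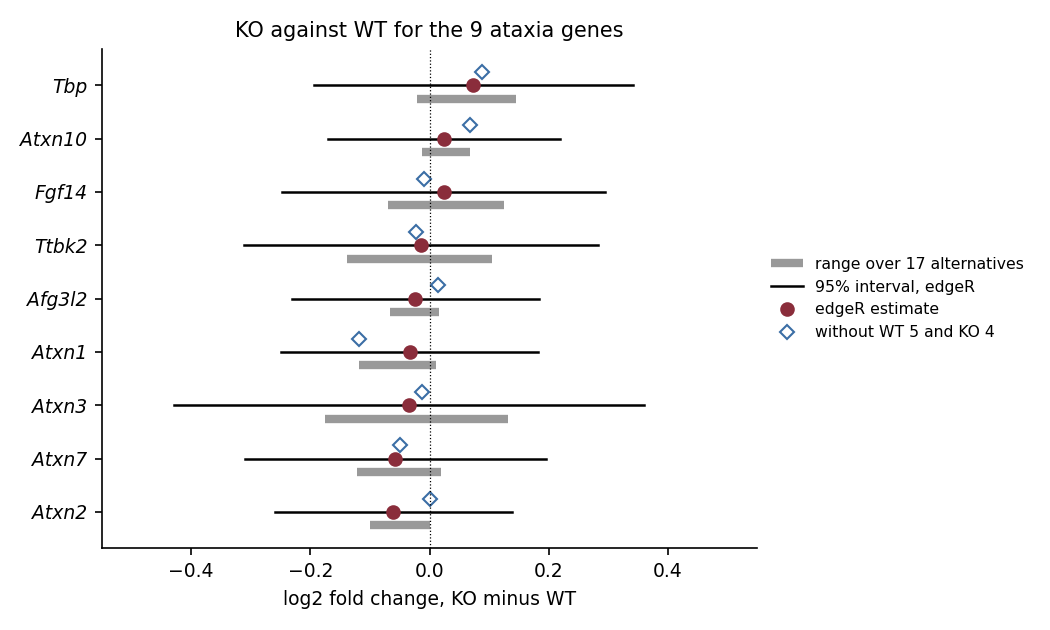
Log2 fold change of each ataxia gene, KO minus WT (x axis), with its 95% interval from edgeR (black line), the value without WT 5 and KO 4 (open diamond) and the range over 17 alternative settings (grey bar). All intervals include 0, and no alternative reached beyond 0.175 in either direction.

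The libraries also differed from each other across the genotypes. In Ttbk2, Atxn3, Atxn7, Fgf14 and Tbp both WT 5 and KO 4 lay above all of the other 4 libraries, which is 5 of 9 genes, and in 0 of 9 did they both lie below. Of all genes tested, 20.0% had both above and 21.0% both below. Of the 6876 more abundant genes, those averaging 30 CPM or more, 26.7% had both above and 31.0% both below. The 2 libraries were picked out on the same genes, so these counts carry no test. The mean of WT 5 and KO 4 was 1.34 times that of the other 4 libraries for Atxn3, 1.27 times for Ttbk2, 1.17 times for Fgf14, 1.15 times for Atxn7 and 1.13 times for Tbp. For Atxn10, Atxn1, Atxn2 and Afg3l2 the same ratio was 1.04, 1.02, 1.00 and 0.962. Summed astrocyte and Bergmann glia markers were also highest in these libraries (4001 CPM in WT 5 and 3990 CPM in KO 4, 3451 to 3553 CPM in the others). Summed markers of cerebellar nuclei neurons were lowest there (1338 and 1161 CPM, against 1399 to 1498 CPM), as were those of interneurons (1068 and 1086 CPM, against 1120 to 1152 CPM). Red blood cell markers (74.4 and 65.0 CPM, against 45.1 to 55.9 CPM) and the forebrain and brainstem markers (8.58 and 17.2 CPM, against 5.85 to 6.90 CPM) were highest in WT 5 and KO 4. For the remaining marker lists the 2 libraries did not lie together at either end. These lists were of Purkinje cells, granule cells, oligodendrocytes, microglia, choroid plexus, endothelial and mural cells and meningeal fibroblasts. The part of any of these cell types in the pattern was not tested.

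**Figure D3:**
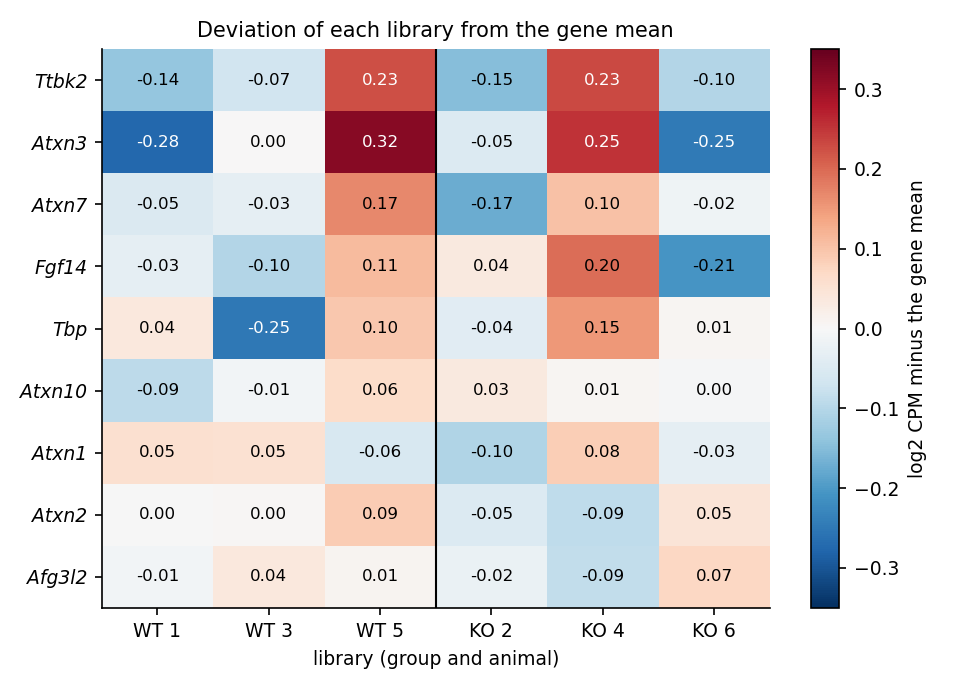
Log2 CPM of each ataxia gene (rows) in each library (columns) minus the mean of that gene over the 6 libraries, red for above and blue for below. The columns of WT 5 and KO 4 are red for the upper 5 genes, in which both lay above the other 4 libraries.

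The 9 genes differed widely in how steady they were. The coefficient of variation within groups was 3.90% for Atxn10, 4.08% for Afg3l2, 4.24% for Atxn2 and 5.59% for Atxn1, where counting alone gives 2.14%, 2.98%, 2.30% and 2.86%. The median over all genes tested was 14.6%, and over the genes of at least 30 CPM it was 9.81%. These 4 genes thus lay in the steadiest 8.28% of the genes tested or better. Atxn7, Tbp and Fgf14 were at 9.09%, 9.96% and 11.2%. Ttbk2 (14.3%) and Atxn3 (19.3%) varied most, although Ttbk2 had the most counts of the 9 and a counting error of 1.93%.

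The levels per length spanned more than an order of magnitude. FPKM, the count divided by gene length and by a library total, was deposited by the authors for each library. Atxn10 was the highest by far, at 73.9 ± 4.43 FPKM in WT and 74.4 ± 0.804 FPKM in KO (SD, n = 3 each), above 97.8% of the genes tested. Afg3l2 followed with 24.2 ± 0.458 and 23.6 ± 1.33 FPKM, then Fgf14 with 18.3 ± 1.49 and 18.4 ± 2.54 FPKM and Ttbk2 with 15.6 ± 2.23 and 15.3 ± 2.29 FPKM (WT and KO). Atxn2 (8.13 ± 0.343 and 7.72 ± 0.379 FPKM) and Atxn7 (7.998 ± 0.740 and 7.61 ± 0.740 FPKM) lay close together in the middle. Atxn1 (5.86 ± 0.219 and 5.67 ± 0.387 FPKM), Atxn3 (5.80 ± 1.24 and 5.60 ± 0.997 FPKM) and Tbp (3.99 ± 0.506 and 4.16 ± 0.297 FPKM) were the lowest. The ranges of Fgf14 and Ttbk2 overlapped in this order, although Fgf14 was the higher within each of the 6 libraries. Those of Atxn2 and Atxn7 and those of Atxn1 and Atxn3 overlapped as well. In the other 5 pairs of neighbours every library of the higher gene lay above all libraries of the lower.

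The order depended on which length the count was divided by. For all members except Afg3l2 (3085 bases against 9874) the deposited length equals the union of all exons annotated in GENCODE M21, and it was 13576 bases for Tbp, whose principal transcripts were 1891 to 12794 bases long. For Atxn2 it was 15689 bases against a principal transcript of 4472 bases. Per kilobase of the shortest principal transcript, a measure added after the data were seen, Tbp stood at 30.7 CPM and was second of the 9 instead of last, and Atxn2 stood at 29.2 CPM. Atxn1 and Atxn7 stood at 22.4 and 22.2 CPM per kilobase on this measure and Atxn3 at 6.03, while Atxn10 kept the first place with 77.8. Which transcripts the cerebellum uses cannot be read from gene counts.

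**Figure D4:**
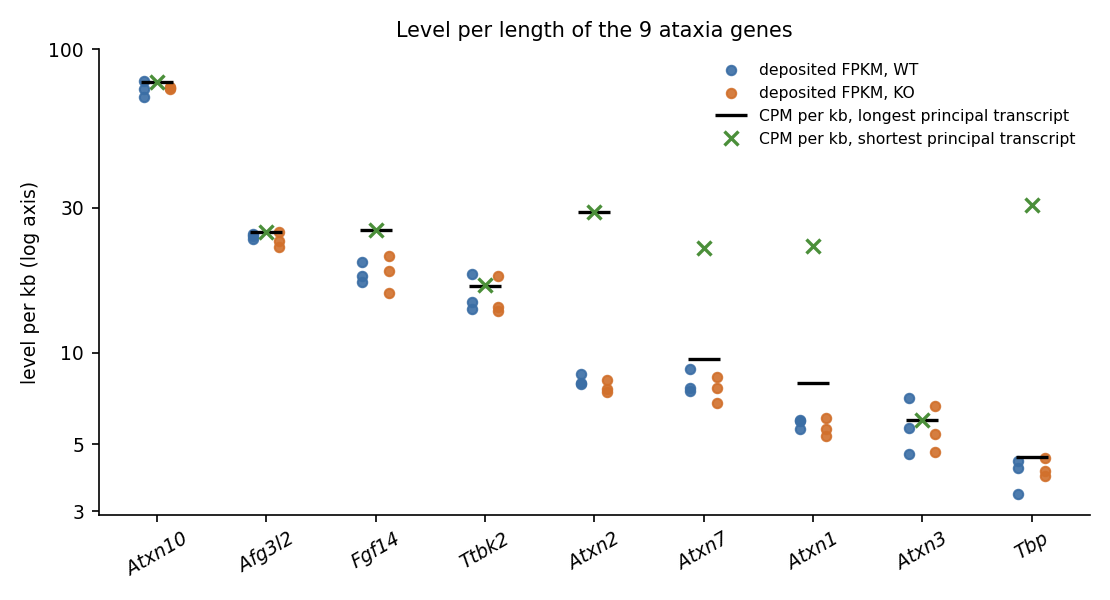
Level of the 9 ataxia genes per kilobase (y axis, logarithmic) as the deposited FPKM of each WT (blue) and KO (orange) library, and as mean CPM per kilobase of the longest (bar) and shortest (cross) principal transcript. The cross of Tbp lies at 30.7, far above its FPKM of 3.42 to 4.49.

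Overlapping genes bear on the counts of Tbp and Ttbk2. Pdcd2, a gene on the strand opposite to Tbp (chromosome 17, 15519208 to 15527301), has all of its 2582 exonic bases within annotated exons of Tbp, and it was listed with 0 counts in all 6 libraries. Of 26 protein-coding genes whose exons lie wholly within exons of protein-coding genes on the other strand, 25 had no count in any library. Among the 19138 protein-coding genes with no such overlap, 21.2% had none. The shared bases are 19.0% of the exonic length of Tbp, and the sources used here do not say whether reads from them entered its count. Ttbk2 shares 3409 exonic bases (29.9% of its exonic length) with Cdan1 on the same strand, which had 3828 counts over the 6 libraries against 16040 for Ttbk2. Atxn1 and Atxn2 share 375 and 99 exonic bases with Gmpr and Sh2b3 on the opposite strand, and Fgf14 shares 220 with the antisense gene Gm28932, which had 8 counts. The remaining members share no exonic bases with another gene.

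The genes most like each member were sought among 10159 protein-coding genes of at least 10 CPM, by Pearson's r of log2 CPM over the 6 libraries. These values describe only 6 libraries, which differed in depth and in the marker sums above, and the best of so many genes is high by selection. For Ttbk2 they were Gpm6b, a membrane glycoprotein of glia and neurons (r = 0.997), and the transcription factor gene Tcf4 (r = 0.996). Gpm6b reached 1931 CPM in WT 5 and 1970 CPM in KO 4, with 1347 to 1428 CPM in the other libraries, the same division as in Ttbk2. For Atxn3 they were Odf2l (0.998) and Fam204a (0.995), for Fgf14 Pcmtd2 (0.999) and Bclaf1 (0.996), and for Atxn7 Clasp2 (0.994) and 4930453N24Rik (0.993). For Atxn10 they were Nt5c2 (0.999) and Eif3a (0.984), for Atxn1 Phf8 (0.990) and Dock5 (0.970), for Atxn2 Adgrl3 (0.991) and Fer1l5 (0.981). Tbp was most like Lyn and Serpinb1a (0.985 each), and Afg3l2 most like Adra2a (0.981) and Mvb12a (0.980). Within the set, Ttbk2 and Atxn7 (0.909) and Ttbk2 and Atxn3 (0.906) were most alike, Atxn2 was most like Afg3l2 (0.760), and Atxn1 had no partner above 0.300.

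Relatives of the members by sequence or name also kept to small differences. Of 16 such genes 15 passed the filter, 0 of 15 were called (0.0467% over all genes tested), and their median log2 fold change was -0.047. Tbpl2, which encodes a TBP relative of the germ line, had no count. Atxn2l, a paralog of Atxn2 with a similar role in RNA granules, was at 55.4 ± 9.99 FPKM in WT and 52.7 ± 8.08 FPKM in KO (n = 3 each), 6.82 times the FPKM of Atxn2 over all libraries. The deposited lengths, 4782 bases for Atxn2l and 15689 for Atxn2, enter this ratio. In CPM the difference was smaller, with Atxn2l at 277 in WT and 266 in KO, against 133 and 128 for Atxn2. Tbpl1 was at 5.00 times the FPKM of Tbp, a ratio that the long exon union of Tbp enters. Among the FGF homologous factors, Fgf12 (22.8 ± 4.35 FPKM in WT) and Fgf11 (17.4 ± 1.28 FPKM) lay near Fgf14, and Fgf13 (5.75 ± 0.509 FPKM) lay below it in all 6 libraries. Ttbk2 exceeded its paralog Ttbk1 1.29-fold in FPKM in all 6 libraries, with deposited lengths of 11406 and 14097 bases. In CPM Ttbk1 was the higher of the pair in WT 1, WT 3, KO 2 and KO 6, so their order there rests on the lengths. By the deposited lengths Afg3l2 exceeded its paralog Afg3l1 2.58-fold and its partner in the m-AAA protease, Spg7, 1.76-fold. On the exon union of 9874 bases, a length added after the data were seen, the same counts gave 7.0 to 7.81 FPKM. This would lie below every library of Afg3l1 (8.0 to 9.80 FPKM) and Spg7 (11.5 to 14.8 FPKM). The counts were not retaken over that union, and the sources used here do not say which exons they cover. The order of these genes was therefore not settled. The relatives with the smallest unadjusted p were Fgf13 (log2 fold change -0.18, SE 0.14) and Josd2 (0.13, SE 0.13), a deubiquitinase of the same fold as ATXN3, both with edgeR adjusted p = 1.0. Josd2 was at 0.028 without KO 6 and 0.22 without WT 5 and KO 4, and Fgf13 at -0.081 without KO 6.

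Partners of the encoded proteins were examined in 9 lists, and no gene was called in any of them. Of all genes tested 51.2% had a negative log2 fold change. Of the 12 partners of ATXN1, 8 were negative (median -0.053), with the splicing factor gene Rbm17 at -0.13 and Ywhae at -0.069. In 2 of these 12, Rbm17 among them, the groups did not overlap, against 7.26% of all genes tested. Among 9 genes known as targets of CIC, the repressor that ATXN1 joins, 8 were negative (median -0.14). Spry4, an inhibitor of growth factor signalling, measured 27.0 ± 1.51 CPM (WT) and 20.0 ± 6.00 CPM (KO, SD, n = 3 each), for a log2 fold change of -0.43 with SE 0.19 and an edgeR adjusted p of 1.0. KO 6 lay at 26.6 CPM, within the WT range of 25.3 to 27.9 CPM, and KO 2 and KO 4 at 14.9 and 18.6 CPM. The log2 value of Spry4 was -0.26 without KO 2 and -0.69 without KO 6 (edgeR adjusted p = 0.611). Ccnd1 was at -0.36 (SE 0.18) and Etv1, the most abundant of them and a gene of granule cells, at -0.14 (SE 0.12). Without WT 5 they were at -0.12 and -0.044, and without WT 5 and KO 4 Ccnd1 was at -0.11. In 2 of the 9 targets the groups did not overlap, against 7.26% of all genes tested. The summed granule cell markers named above were lower in each KO library, and Etv1 is itself among those markers.

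For ATXN2, the 8 RNA-binding partners had a median of -0.0013, with the helicase gene Ddx6 at -0.12 and Tardbp at 0.074. For ATXN3, 6 of 9 genes of the ubiquitin system were positive (median 0.045), with Ube4b at -0.14, Ufd1 at 0.11 and Vcp, the segregase that ATXN3 binds, at 0.045. For ATXN7, 20 of 21 other SAGA genes were tested (median 0.016, 12 positive), with the subunit genes Taf5l and Taf6l at 0.27 and 0.23 and the scaffold gene Trrap at -0.094. For TBP, 24 of 25 genes of its complexes were tested (median -0.022, 14 negative), with Taf7 at 0.24, Taf3 at -0.21 and Taf1, the largest subunit of TFIID, at -0.075. Taf9, which both lists hold, was below the filter. The groups did not overlap in 1 of the 20 SAGA genes and 2 of the 24 TBP genes tested, against 7.26% of all genes tested. In the ATXN2 and ATXN3 lists there was no such gene. Each gene given a value here had an edgeR adjusted p of 1.0. Single libraries moved several of them: without WT 5 Ddx6 was at -0.014, Taf5l at 0.11, Taf6l at 0.13 and Taf3 at -0.11, and without WT 5 and KO 4 these were at -0.036, 0.17, 0.11 and -0.13.

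For FGF14, 10 of 12 genes of the axon initial segment and its sodium channels were negative (median -0.084). Scn2b, a sodium channel beta subunit, was at 512, 524 and 492 CPM in animals 1, 3 and 5 (WT), against 459, 406 and 469 CPM in animals 2, 4 and 6 (KO), so that the groups did not overlap. Its log2 fold change was -0.195 (SE 0.092, edgeR adjusted p = 1.0). Kcnq3 was at -0.23 (SE 0.15) and Ank3, the anchor of the segment, at -0.075 (SE 0.085). Without WT 5 they were at -0.081 and -0.041. The groups also did not overlap in Scn8a, named for that reason after its values were seen, at -0.13, which makes 2 of 12 genes against 7.26% of all genes tested. For TTBK2, 13 genes of cilia growth had a median of -0.026, with Cep97 at -0.25, Sclt1 at -0.23 and Mapt, a substrate of the kinase, at -0.057. Without WT 5 Cep97 was at -0.028 and Sclt1 at -0.052, so nearly all of both values rested on that library. For AFG3L2, 15 genes of mitochondrial protein quality control had a median of 0.015, with Mrpl32, a substrate of the protease, at -0.22, Lonp1 at 0.12 and Opa1 at -0.041. Mrpl32 was at -0.060 without KO 6 and -0.41 without KO 4. Each of these had an edgeR adjusted p of 1.0.

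**Figure D5:**
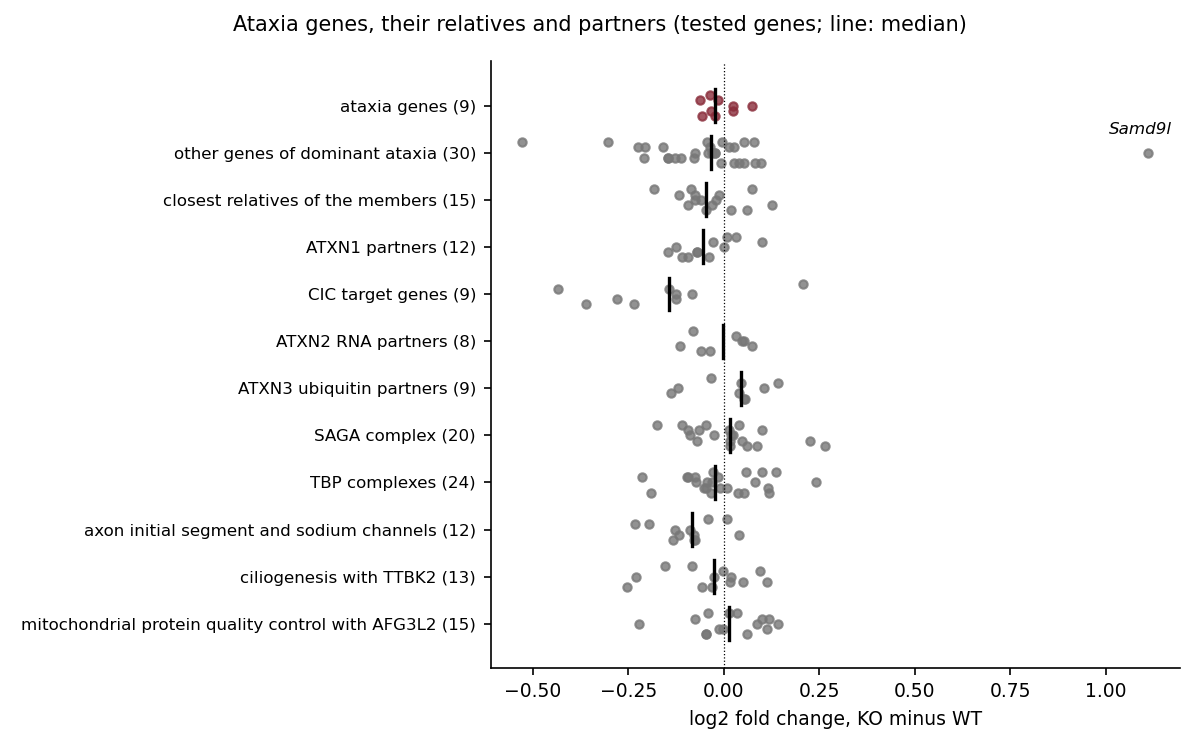
Log2 fold change, KO minus WT (x axis), of every tested gene of the ataxia set (red) and of the lists of other ataxia genes, relatives and partners (grey), with the number tested in brackets and the median of each list as a black line. The medians lie between -0.14 and 0.045, and Samd9l at 1.11 stands away from the rest.

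The 9 genes can be set beside the other genes of dominant ataxia. Of 33 listed, 32 were found, 30 were tested and 0 of 30 were called (median -0.033, 20 negative). Samd9l, a gene of the antiviral response in which changes are a cause of ataxia, was at 4.14, 4.15 and 6.67 CPM in animals 1, 3 and 5 (WT), against 8.37, 13.7 and 10.3 CPM in animals 2, 4 and 6 (KO). All 3 KO values exceeded the highest WT value. The log2 fold change of Samd9l was 1.11 (SE 0.26, unadjusted p = 0.0016, edgeR adjusted p = 0.597), so the difference did not pass over all genes tested. It was the only one of the 158 tested genes of these lists with an unadjusted p under 0.05, which 2.75% of all genes tested had. With DESeq2 its adjusted p was 0.0451, without the low-count filter 0.00045, and with a term for WT 5 and KO 4 0.0327, and without these libraries 0.104 at a log2 fold change of 1.17. Fat2, a cadherin of granule cells, measured 990 ± 76.1 CPM (WT) and 858 ± 58.4 CPM (KO), n = 3 each. Its log2 value was -0.21 with SE 0.097 and an edgeR adjusted p of 1.0. Fat2 is itself among the granule cell markers whose sum was lower in KO, so that sum is not separate from it. Itpr1, the calcium release channel of Purkinje cells and the most abundant of these genes, was at 0.097 (SE 0.096) and at 0.029 without WT 5 and KO 4.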

How the data were processed

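The table held counts, FPKM values and a comparison of KO with WT. Per the submitters' processing notes HISAT2, DESeq2 and GRCm38.p6 were used. The sources used here do not give the counting program, strand setting or annotation release. The deposited counts are whole numbers per gene, not normalized. The deposited FPKM values are counts divided by gene length and by a library total. The authors' group means are a signal, counts divided by size factors, and were not used. The log2 values and p-values of the authors' comparison stand in the same deposited table. Nothing in the labels says more of the replicates than that they are separate animals.

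Sample titles gave groups and animal numbers. The test was edgeR 4.0.16 in R 4.3.3, its quasi-likelihood F test after TMM, filterByExpr by group and Benjamini-Hochberg adjustment. Standard errors are the size of each log2 fold change divided by the square root of its F. Intervals of 95% use the t quantile of the fit. One count was worth 0.0629 to 0.0733 CPM. Library pairs had chi-square values of 4.96 to 20.1 per degree of freedom, so none was a copy of another. Alternatives were other normalizations and filters, protein-coding genes alone, DESeq2 1.42.0, limma-voom 3.58.1, robust shrinkage and libraries left out. The edgeR step was tested on simulated data, with changes put into genes drawn from all those tested. It recovered 38.0% of 50 changes of 1.5-fold and 78.0% of 50 changes of 2-fold. Of its 169 calls 14 were false. Transcripts and exon overlaps came from GENCODE M21 and gene coordinates from the deposited table. Joins used pandas 2.3.3 (Python 3.11.15) and figures matplotlib 3.10.9. The members, the 11 lists of relatives and partners and the marker lists were chosen with earlier results of these data known. Every member is named, as are its 2 most alike genes, its relatives and overlapping genes. Other genes named from a list are the 2 with the smallest unadjusted p and the 1 with the highest CPM. A gene that this rule names is not reported here.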

Additional observations from a re-analysis of the deposited data

How the results depend on the processing

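The depth of 13805997 to 15788135 counts gave each ataxia gene 363 to 3079 counts per library, so the spread between animals, not counting, set the width of most intervals. edgeR draws the variation of each gene toward a trend over all genes tested. For Atxn10, Afg3l2, Atxn2 and Atxn1 a gene-wise value so moderated, with counting error left out, was 8.83% to 9.47%. Their own variation within groups, counting error included, was 3.90% to 5.59%. The intervals did not use this moderated value but another one, from the quasi-likelihood fit, which is not printed here. Through that fit, variation borrowed from other genes also entered the width of their intervals. Differences within those intervals were not detectable here, and larger ones could also go uncalled, because p was adjusted over all genes tested. The count of ataxia genes called was 0 under all 17 alternatives. The smallest edgeR adjusted p of any member was 0.953, for Atxn2 with a term for WT 5 and KO 4. The smallest unadjusted edgeR p was 0.168, for Atxn1. The number of all genes called was 8. It was 142 without the low-count filter, 42 with DESeq2, 40 without WT 5 and KO 4, 34 with a term for them (chosen after seeing the data), and 0 to 28 when single libraries were left out: 0 when WT 1 or WT 3 was dropped, 28 for WT 5, 2 for KO 2, 17 for KO 4 and 3 for KO 6. The number of list genes called was 0 of 158, and 1 (Samd9l) without the low-count filter, with DESeq2 and with the term. Of 153 member values under alternatives 136 kept their direction. The reversed ones were Ttbk2 without normalization factors (0.0039), Atxn2 (0.00053), Fgf14 (-0.0089) and Afg3l2 (0.014) without WT 5 and KO 4, and values with single libraries left out. With single libraries left out, the log2 fold changes whose sign turned ranged as follows: Atxn1 -0.083 to 0.010, Atxn3 -0.18 to 0.13, Atxn7 -0.12 to 0.018, Tbp -0.020 to 0.14, Atxn10 -0.013 to 0.066, Fgf14 -0.070 to 0.12, Ttbk2 -0.14 to 0.11, Afg3l2 -0.066 to 0.016. Among the other named genes the same held for Atxn2l -0.20 to 0.061, Mapt -0.11 to 0.019, Ywhae -0.11 to 0.0034, Taf1 -0.11 to 0.0012, Opa1 -0.11 to 0.034, Tardbp -0.010 to 0.14, Trrap -0.21 to 0.017, Lonp1 -0.0033 to 0.22. Without a change of sign, single libraries moved these by over 1.5 times: Ank3 -0.10 to -0.041, Atxn2 -0.099 to -0.028, Ccnd1 -0.47 to -0.12, Cep97 -0.36 to -0.028, Ddx6 -0.19 to -0.014, Etv1 -0.23 to -0.044, Fgf13 -0.24 to -0.081, Itpr1 0.058 to 0.17, Josd2 0.028 to 0.25, Kcnq3 -0.33 to -0.081, Mrpl32 -0.41 to -0.060, Rbm17 -0.17 to -0.073, Sclt1 -0.38 to -0.052, Spry4 -0.69 to -0.26, Taf3 -0.26 to -0.11, Taf5l 0.11 to 0.42, Taf6l 0.13 to 0.31, Taf7 0.15 to 0.33, Ube4b -0.20 to -0.089, Vcp 0.0036 to 0.071. Leaving out WT 5 and KO 4 together gave Atxn1 -0.12, Atxn3 -0.012, Atxn10 0.068, Ttbk2 -0.024, Itpr1 0.029, Josd2 0.22, Ywhae -0.039, Ccnd1 -0.11, Ddx6 -0.036, Tardbp 0.044, Vcp 0.085, Taf6l 0.11, Taf5l 0.17, Trrap -0.027, Taf3 -0.13, Taf1 -0.042, Ank3 -0.046, Cep97 -0.050, Sclt1 -0.078, Lonp1 0.19, each moved by over 1.5 times with its sign kept. The number of neighbours in the order of levels whose libraries were separate was 5 by FPKM and 3 per kilobase of either the longest or the shortest principal transcript, and Tbp moved from rank 9 to rank 2 with the shortest. Afg3l2 moved from 23.9 to 7.46 FPKM when its unchanged counts were divided by its exon union. The cause of these changes was not tested. No paired analysis was possible because the WT animals (1, 3 and 5) and the KO animals (2, 4 and 6) share no number.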
